A study of Mus musculus with 5 samples.

Results

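The collagen genes are the genes of the deposited table whose symbol reads Col, a type number, the letter a and a chain number, and 43 of its 23337 genes met that rule. By the structure of the protein they fall into 11 fibrillar chains, 6 basement membrane chains, 9 fibril-associated chains with interrupted triple helices (FACIT), 6 beaded filament chains and 11 others. Messenger RNA had been sequenced from mouse embryonic fibroblasts of strain 129Sv, all of which carry the SV40 T antigen (SV40T), a viral protein that immortalizes cells, and were grown under normal conditions. Of the 5 libraries, 3 carried the label SIRT3 WT (genotype wild type) and 2 the label SIRT3 KO (knockout). SIRT3 is a mitochondrial deacetylase, and the comparison asks which transcripts differ between the lines labelled as wild type and as knockout for it. Whether libraries with the same label stem from separate cultures, or from more than 1 immortalized line, is not stated. The p-values therefore cover only library-to-library spread, which may be technical, and the genotype cannot be told apart from any other difference between the lines.

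Collagens are secreted proteins built of 3 chains wound into a triple helix, and each chain has a gene of its own. Fibrillar collagens pack into the banded fibrils of connective tissue. Type IV collagen forms the sheet-like network of basement membranes, and type VI collagen forms the beaded filaments around cells. FACIT collagens sit on the surface of fibrils. Fibroblasts are the main makers of fibrillar and type VI collagen, and the chains of 1 trimer must be made together for it to fold.

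The libraries held between 33473103 and 41758681 reads assigned to genes. Sirt3 itself was present in every library, at 169.7, 149.4 and 118.4 normalized read counts in WT (replicates 1 to 3, the order used throughout) and at 200.4 and 216.8 in the libraries labelled KO. A normalized read count is the number of reads of a gene divided by a factor that evens out the depth of the libraries. The level of Sirt3 thus goes against the KO label if the allele makes no transcript. Totals per gene do not show whether part of the transcript is missing, so every direction below is between libraries as labelled. Of 9 fibroblast markers, 7 were expressed above the minimum, and Lum and Fap were under 10 normalized counts in every library. The 9 markers summed to between 275632 and 280428 normalized counts in WT and between 187963 and 189759 in the libraries labelled KO, with 6 of the 7 tested markers lower there, where 32.6% of all tested genes were lower. Of the markers of other cell types, Ibsp, Myod1, Krt5, Hbb-b1, Rbfox3, Snap25 and Sox10 were at 0 in all 5 libraries.

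The summed level of the collagen genes overlapped between the labels, while 23 of the 30 tested genes differed. Collagen genes took 1.26%, 1.25% and 1.30% of all normalized counts in WT and 1.25% and 1.33% in the libraries labelled KO. The difference of the means was 0.0189 percentage points, with SDs of 0.0255 (n = 3) and 0.0534 (n = 2). An exact two-sided permutation test over the libraries gave p = 0.7, but with 3 libraries against 2 it cannot go below 0.1 and so cannot settle whether the totals differ. Of the 43 genes, 30 reached 10 normalized counts in at least 2 libraries and were tested. With the KO label 12 of them rose, 11 fell and 7 did not pass an adjusted p of 0.05 (limma on log2 of the normalized count plus 1, adjusted over all 13062 genes tested). The background was high: 65.3% of all tested genes passed, 32.6% in the higher and 32.6% in the lower direction, against 76.7% of the tested collagen genes (40.0% higher, 36.7% lower). The collagen differences were often larger than that background. A difference of at least 2-fold was called for 12 of the 30 collagen genes (5 higher, 7 lower), or 40.0%, against 13.0% of all tested genes. The libraries of both labels did not overlap for 26 of the 30, or 86.7%, against 75.4% of all tested genes: those labelled KO lay above for 15, against a background of 37.8%, and those of WT for 11, against 37.6%. The median log2 fold change was 0.19 over the 30 collagen genes and -0.0023 over all tested genes. In bulk RNA, fewer cells of a type and less RNA per cell cannot be told apart.

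The other 13 collagen genes were at or near 0, with at most 10 reads in any library, and 6 of them were at 0 reads in 3 or more libraries. They comprise the fibrillar chain Col24a1, the FACIT chains Col9a1, Col9a2, Col14a1, Col19a1 and Col22a1, the beaded filament chains Col6a4, Col6a5 and Col6a6, and the transmembrane or minor collagens Col13a1, Col23a1, Col25a1 and Col28a1. Col6a5 had the most reads of these, with 4, 3 and 1 in WT and 9 and 10 in the libraries labelled KO. With no filter on low values, Col6a5 was called higher (limma log2 fold change 1.82, SE 0.509, adjusted p = 0.0166), though not in the authors' deposited table (adjusted p = 0.0736), and the other 12 did not pass.

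**Figure D1:**
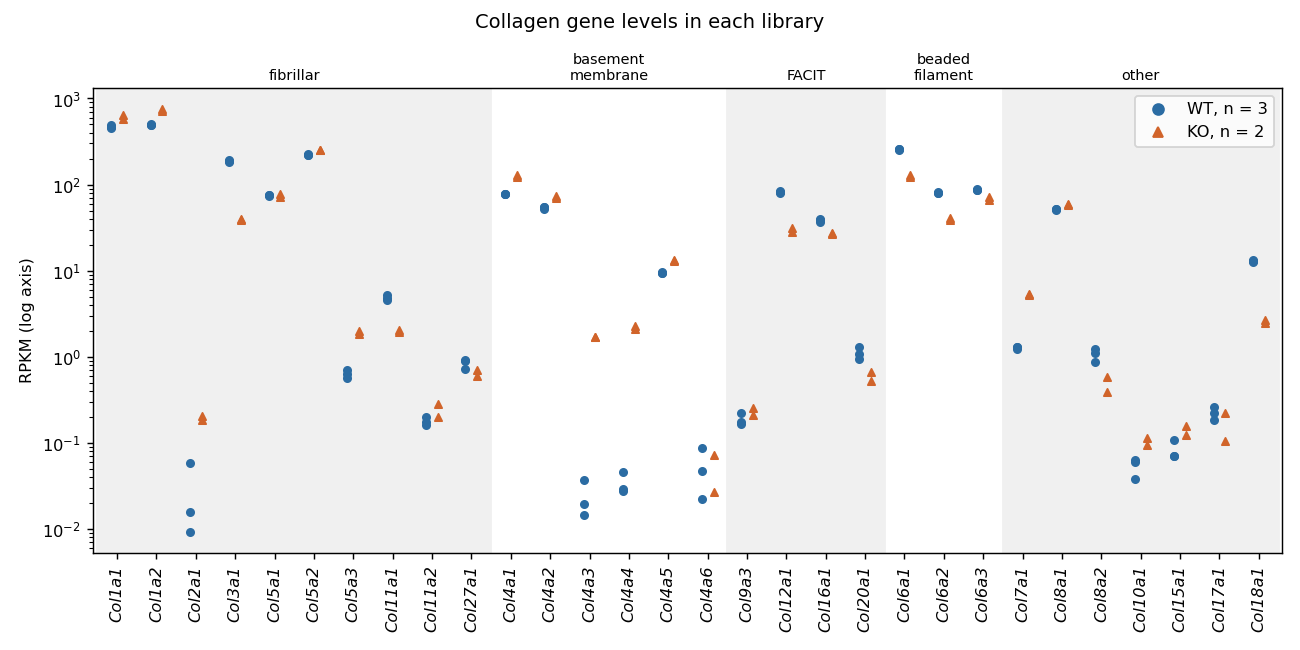
Level of the 30 tested collagen genes in each library in RPKM (reads per kilobase of transcript scaled to the depth of the library, log axis), grouped by class, with 1 point per library (circles WT, n = 3, triangles KO, n = 2). Type I chains stand highest in all 5 libraries, and Col4a3 and Col4a4 show the widest gap between the labels.

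Fibrillar collagen genes differed in both directions. Both chains of type I and the Col5a2 and Col5a3 chains of type V were higher in the libraries labelled KO, Col3a1 and Col11a1 were lower, and Col5a1 did not pass the test. Of 10 tested fibrillar chains 5 rose, 3 fell and 2 did not pass, with a median log2 fold change of 0.28. Over all tested genes 32.6% rose and 32.6% fell, so the share of fibrillar chains that fell is near the background. Per transcript length Col1a2 and Col1a1 were the most abundant collagen messages in every library. Their RPKM means were 495 ± 9.77 and 472 ± 19.2 in WT (SD, n = 3), where the libraries of the pair overlapped, and 738 ± 28.1 and 612 ± 55.3 in the libraries labelled KO (SD, n = 2), where they did not.

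Col1a1 encodes the chain present in more copies in the type I trimer, the main collagen of skin, bone and tendon (chromosome 11, 94936224 to 94953042, GRCm38). It had 79728, 80196 and 85658 normalized counts in WT and 99193 and 114212 in the libraries labelled KO. Both libraries labelled KO were above all 3 WT libraries (log2 fold change 0.38, standard error, SE, 0.052, adjusted p = 1.42e-06). Col1a2 encodes the partner chain (chromosome 6, 4505618 to 4541543) and had 92284, 93969 and 95998 normalized counts in WT and 136166 and 145555 in the libraries labelled KO. It was higher there (log2 fold change 0.58, SE 0.044, adjusted p = 1.4e-10), again with no overlap. The RPKM ratio of Col1a1 to Col1a2 was 0.946, 0.934 and 0.977 in WT and 0.797 and 0.859 in the libraries labelled KO, so the gap between the chains was wider in the latter. Genes near Col1a2 were also higher in these libraries. The 24 tested genes within 5 Mb had a median log2 fold change of 0.54, and its own difference was -0.03 (adjusted p = 0.577) once the local median was subtracted.

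Col3a1, whose trimer of identical chains joins type I in the fibrils of skin, vessels and healing tissue, showed the reverse (chromosome 1, 45311538 to 45349706). Its normalized counts were 38279, 38067 and 40116 in WT and 8208 and 8128 in the libraries labelled KO. From 38821 ± 1127 (SD, n = 3) to 8168 ± 56.4 (SD, n = 2) the fall of the means was 4.75-fold (log2 fold change -2.25, SE 0.037, adjusted p = 9.63e-22). Among the fibrillar chains this was the largest fall. For each unit of Col1a1 RPKM there was 0.405, 0.401 and 0.395 of Col3a1 in WT and 0.0699 and 0.0601 in the libraries labelled KO.

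Col5a2, a type V chain that nucleates type I fibrils, lies 24.6 kb from Col3a1 on chromosome 1 (45374331 to 45503282) and went the other way. It had 54254, 53928 and 55360 normalized counts in WT and 62096 and 62025 in the libraries labelled KO, a log2 fold change of 0.19 (SE 0.038, adjusted p = 1.96e-04). The tested genes on either side of the Col3a1 and Col5a2 pair, Gulp1 and Wdr75, had log2 fold changes of 0.26 and 0.17. Col3a1 thus fell between Col5a2, Gulp1 and Wdr75, which all rose. The wider region did not rise: the tested genes within 5 Mb had a median log2 fold change of -0.11 around Col3a1 and around Col5a2. The partner chain Col5a1 had 23588, 23054 and 23454 normalized counts in WT and 22386 and 24216 in the libraries labelled KO, and its groups overlapped (log2 fold change -0.0050, SE 0.039, adjusted p = 0.919). Col5a3, a rarer type V chain, had 159.1, 128.6 and 143.4 normalized counts in WT and 411.9 and 453.7 in the libraries labelled KO. That was a 3.01-fold rise (log2 fold change 1.59, SE 0.125, adjusted p = 3.2e-10). Col5a3 stayed rare, at an RPKM mean of 1.92 against 253 for Col5a2.

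Type XI and type II collagen belong to cartilage fibrils and were both minor in these cells. Col11a1, a minor fibril chain also made by fibroblasts, had 1221, 1313 and 1401 normalized counts in WT and 542.9 and 526.0 in the libraries labelled KO, a 2.45-fold fall (log2 fold change -1.29, adjusted p = 4.07e-13). Col11a2 had between 33.3 and 58.37 normalized counts in all libraries and did not pass (log2 fold change 0.42, SE 0.257, adjusted p = 0.163). Col2a1, the cartilage fibril chain, had 2, 3 and 12 reads in WT and 32 and 35 in the libraries labelled KO. On normalized counts that was 7.02-fold (log2 fold change 2.90, SE 0.547, adjusted p = 8.76e-05). Without WT replicate 3, which holds 12 of the WT reads, it was 15.7-fold (log2 fold change 3.52, adjusted p = 2.08e-07). In the authors' deposited table, which draws low genes towards 0, the log2 fold change of Col2a1 is 1.55, and on RPKM values plus 0.1 it was 1.22. Of 7 cartilage markers 5 were tested, and 2 of these rose and 1 fell, against 32.6% of all tested genes in each direction. Acan rose from a mean of 14.4 to 73.07 normalized counts and Comp from 4.398 to 19.93, while Sox9 fell from 2183 to 1469. Matn3 and Chad did not pass (log2 fold changes 0.64 and -0.25), and Matn1 and Hapln1 were under 10 in every library. The 7 summed to 2185 to 2265 normalized counts in WT and to 1541 to 1646 in the libraries labelled KO. Nearly all of that sum was Sox9, so it does not show the direction of the other markers. The part of these markers in the Col2a1 result was not tested. Col27a1, a fibrillar chain of developing cartilage, had 262.5, 202.8 and 251.6 normalized counts in WT and 170.7 and 200.2 in the libraries labelled KO. Its call (log2 fold change -0.36, adjusted p = 0.0233) was lost without WT replicate 1 (0.118), without WT replicate 3 (0.0678) and without KO replicate 1 (0.158).

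The promoter sequences of Col3a1 and Col1a2, the fibrillar pair with the largest opposite differences among the abundant chains, are shown here because they differ in make-up. Each runs from 250 bases before to 50 after the annotated start (RefSeq, GRCm38.p6), 5′ to 3′ on the gene's plus strand, at chr1:45311288-45311587 for Col3a1 and chr6:4505368-4505667 for Col1a2. Capitals mark matches on either strand to CCAAT, the core of the box bound by NF-Y, to GGGCGG, the core bound by Sp1, and to TATAAA, a form of the box bound by the TATA-binding protein.
Col3a1: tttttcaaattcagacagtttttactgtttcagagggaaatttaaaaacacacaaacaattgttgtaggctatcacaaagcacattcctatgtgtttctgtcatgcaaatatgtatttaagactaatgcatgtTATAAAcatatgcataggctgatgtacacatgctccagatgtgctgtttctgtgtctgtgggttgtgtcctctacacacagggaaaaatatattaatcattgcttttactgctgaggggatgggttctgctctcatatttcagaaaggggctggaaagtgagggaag
Col1a2: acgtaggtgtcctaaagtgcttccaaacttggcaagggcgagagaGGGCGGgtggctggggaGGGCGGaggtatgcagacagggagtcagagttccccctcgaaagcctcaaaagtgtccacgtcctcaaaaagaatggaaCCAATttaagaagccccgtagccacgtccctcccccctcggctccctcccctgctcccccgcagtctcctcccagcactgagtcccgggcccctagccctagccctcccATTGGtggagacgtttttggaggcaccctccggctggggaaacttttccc
The Col3a1 window is 37.7% G and C and holds 1 TATAAA match. The Col1a2 window is 61.0% G and C and holds 2 matches to CCAAT and 2 to GGGCGG. A match is a string of letters and not a site of binding, and whether the windows bear on the levels was not tested. Over the 35 collagen genes with a window, CCAAT occurred in 13 (37.1%), GGGCGG in 22 (62.9%) and TATAAA in 5 (14.3%). Of the 9260 tested genes with a window, 43.4%, 69.8% and 8.80% held them, and of all 27025 genes with one, 41.1%, 38.2% and 15.7%.

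Most basement membrane chains were higher in the libraries labelled KO. Of the 6 type IV chains 5 rose, where 32.6% of all tested genes rose, none fell and Col4a6 did not pass, with a median log2 fold change of 0.58, though 1 of the 5, Col4a2, was lower once the change of its neighbourhood was subtracted. The class holds both the common chains Col4a1 and Col4a2, found in nearly all basement membranes, and the restricted chains Col4a3, Col4a4 and Col4a5, which form the network of the kidney glomerulus, the inner ear and the lung. The largest difference of any collagen gene was in this restricted group.

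Col4a3 and Col4a4 went from near silence to clear expression. Col4a3 had 7, 12 and 5 reads in WT and 496 and 497 in the libraries labelled KO (chromosome 1, 82586921 to 82722059). Mean normalized counts rose 72.7-fold, from 7.561 ± 3.81 (SD, n = 3) to 549.5 ± 4.57 (SD, n = 2) (log2 fold change 6.10, SE 0.298, adjusted p = 1.07e-13). Col4a4 had 15, 8 and 9 reads in WT and 602 and 558 in the libraries labelled KO (chromosome 1, 82448419 to 82587034). Its means were 9.833 ± 2.97 and 641.7 ± 30.0 normalized counts, a 65.3-fold difference (log2 fold change 5.92, SE 0.243, adjusted p = 4.93e-15). On RPKM values plus 0.1 the log2 fold change of Col4a3 was 3.88. The genes around the pair did not share a change of this size. The neighbours on either side, Rhbdd1 and Mff, had log2 fold changes of -0.16 (adjusted p = 0.0271) and 0.047 (adjusted p = 0.334), and the tested genes within 5 Mb of the pair had medians of 0.010 and 0.012. Even so, both messages stayed far below those of the common chains, at RPKM means of 1.72 and 2.22 in the libraries labelled KO against 126 for Col4a1.

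Col4a5, which completes the trimer with Col4a3 and Col4a4, was already expressed in WT. It had 2239, 2250 and 2341 normalized counts there and 3172 and 3120 in the libraries labelled KO, a 1.38-fold rise (log2 fold change 0.47, SE 0.045, adjusted p = 8.21e-09; chromosome X, 141475370 to 141689236). With the local median of 0.25 subtracted it still passed, at 0.21 (adjusted p = 6.4e-04). Col4a6 lies 1.3 kb away in the head-to-head orientation and stayed near the floor, with between 5.551 and 21.76 normalized counts in every library (log2 fold change -0.04, SE 0.535, adjusted p = 0.952). The head-to-head pair of the X chromosome was thus expressed from 1 side, and the pair of chromosome 1, in the libraries labelled KO, from both.

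Col4a1, the most abundant type IV chain, had 19138, 18928 and 19192 normalized counts in WT and 30239 and 31761 in the libraries labelled KO. It was 1.62-fold higher (log2 fold change 0.70, SE 0.037, adjusted p = 3.86e-13; chromosome 8, 11198423 to 11312889). Its partner Col4a2 had 12907, 12428 and 13014 normalized counts in WT and 16433 and 17606 with the KO label, 1.33-fold higher (log2 fold change 0.41, SE 0.039, adjusted p = 6.9e-09; chromosome 8, 11312805 to 11449287). The RPKM ratio of Col4a1 to Col4a2 was 1.44, 1.48 and 1.43 in WT and 1.79 and 1.75 in the libraries labelled KO, with no overlap. The region as a whole was higher in these libraries: the flanking genes Irs2 and Rab20 differed by 1.11 and 0.46 on the log2 scale, and the 35 tested genes within 5 Mb had a median of 0.54. With that median subtracted Col4a1 was at 0.14 (adjusted p = 0.00578) and Col4a2 was lower, at -0.15 (adjusted p = 0.00653).

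The start regions of these type IV pairs are shown because both genes of a pair begin in them on opposite strands, and the pair of chromosome 1 had the largest differences of the family. The windows are those of RefSeq (GRCm38.p6), 5′ to 3′ along the strand of the named gene, at chr1:82586800-82587099 (minus strand) for Col4a4, chr8:11312777-11313076 (minus strand) for Col4a1 and chr8:11312555-11312854 (plus strand) for Col4a2. They run from 250 bases before to 50 after a start. For Col4a4 and Col4a1 that start lies inside the gene model, while the overlaps of gene models given here are counted from its outer end. In Col4a4 capitals mark the 114 bases annotated to both Col4a3 and Col4a4. In Col4a1 and Col4a2 they mark the 78 bases that the windows of the pair share, which are reverse complements of each other.
Col4a4: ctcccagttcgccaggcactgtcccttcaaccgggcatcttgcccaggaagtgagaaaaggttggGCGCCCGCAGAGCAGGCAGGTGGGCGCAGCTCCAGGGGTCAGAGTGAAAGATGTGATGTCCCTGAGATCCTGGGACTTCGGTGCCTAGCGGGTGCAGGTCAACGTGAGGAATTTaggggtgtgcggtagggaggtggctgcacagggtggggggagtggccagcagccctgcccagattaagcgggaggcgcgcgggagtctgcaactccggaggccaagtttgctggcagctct
Col4a1: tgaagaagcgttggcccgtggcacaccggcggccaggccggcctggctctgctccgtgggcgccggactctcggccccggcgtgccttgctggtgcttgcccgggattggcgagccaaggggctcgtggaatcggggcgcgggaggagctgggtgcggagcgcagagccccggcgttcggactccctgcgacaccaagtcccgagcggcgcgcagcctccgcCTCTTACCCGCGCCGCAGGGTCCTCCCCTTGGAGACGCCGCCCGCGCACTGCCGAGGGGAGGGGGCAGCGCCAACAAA
Col4a2: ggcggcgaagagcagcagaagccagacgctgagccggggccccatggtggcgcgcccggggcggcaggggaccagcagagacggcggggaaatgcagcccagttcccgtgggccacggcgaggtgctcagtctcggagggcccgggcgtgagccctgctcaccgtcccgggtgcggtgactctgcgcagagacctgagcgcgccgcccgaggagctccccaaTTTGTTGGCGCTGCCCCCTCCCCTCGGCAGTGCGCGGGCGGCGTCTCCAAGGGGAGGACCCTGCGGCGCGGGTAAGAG
The G and C share was 63.3% in the Col4a4 window and 74.0% and 73.7% in those of Col4a1 and Col4a2. The gene models of Col4a1 and Col4a2 overlap by 85 bp and those of Col4a3 and Col4a4 by 114 bp. With no strand setting stated, reads inside such an overlap cannot be told apart. Of the 30 tested collagen genes, 15 overlap another annotated gene, among them Col10a1, which lies wholly inside the span of Nt5dc1.

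**Figure D2:**
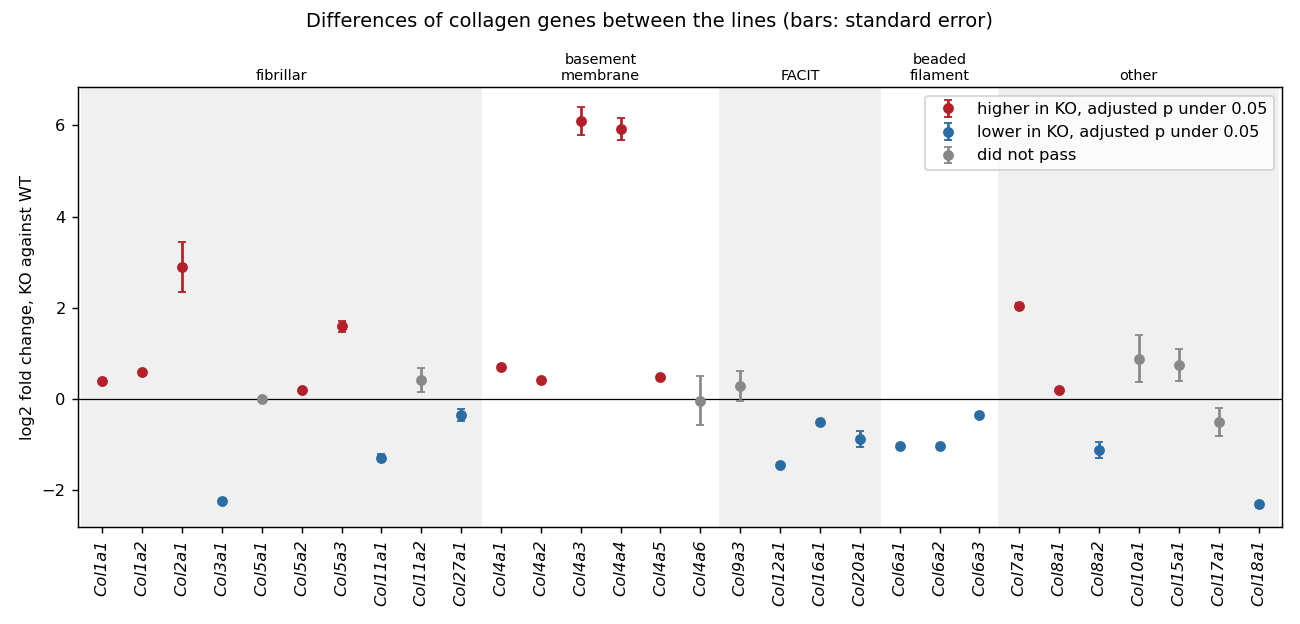
Log2 fold change of the 30 tested collagen genes in the libraries labelled KO against WT, with standard errors, coloured by call at a limma adjusted p under 0.05. Col4a3 and Col4a4 stand near 6, the tested beaded filament chains all lie below 0, and Col3a1 and Col18a1 are the lowest.

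Most FACIT collagens expressed by these cells were lower in the libraries labelled KO. Of 4 tested chains 3 fell, where 32.6% of all tested genes fell, none rose and Col9a3 did not pass. Col12a1, a long fibril-surface collagen of tendon and of tissue under load, had 34966, 34623 and 35926 normalized counts in WT and 12168 and 13516 in the libraries labelled KO. The 2.74-fold fall had a log2 fold change of -1.46 (SE 0.042, adjusted p = 1.26e-17). Col16a1, a FACIT collagen that associates with fibrils and microfibrils, had 7524, 7031 and 7644 normalized counts in WT and 5072 and 5280 in the libraries labelled KO (log2 fold change -0.51, SE 0.042, adjusted p = 6e-10). Col20a1 was low in all libraries, with 199.8, 166.2 and 148.0 against 103.5 and 81.18 normalized counts (log2 fold change -0.88, SE 0.166, adjusted p = 8.08e-05). The groups did not overlap for any of these 3 genes. Col9a3 had 20 to 24 reads in every library, at a log2 fold change of 0.28 (SE 0.335, adjusted p = 0.479).

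All 3 expressed beaded filament chains fell, where 32.6% of all tested genes fell. Type VI collagen is assembled from Col6a1, Col6a2 and most often Col6a3. Col6a1 (chromosome 10, 76708792 to 76726044) had 38079, 37532 and 38147 normalized counts in WT and 17763 and 18999 in the libraries labelled KO, a 2.06-fold fall (log2 fold change -1.05, SE 0.038, adjusted p = 7.03e-16). Col6a2, 85.2 kb away on the same chromosome, had 11077, 11044 and 11357 against 5310 and 5638, a 2.04-fold fall (log2 fold change -1.03, SE 0.039, adjusted p = 1.04e-15). This pair kept its proportion: the RPKM ratio of Col6a1 to Col6a2 was 3.22, 3.19 and 3.15 in WT and 3.14 and 3.16 in the libraries labelled KO, with overlap. Col6a3, on chromosome 1, had 34898, 35019 and 35803 normalized counts in WT and 26389 and 28855 in the libraries labelled KO, a 1.28-fold fall (log2 fold change -0.35, SE 0.041, adjusted p = 1.33e-07). The RPKM ratio of Col6a3 to Col6a1 therefore went from 0.336, 0.342 and 0.344 to 0.545 and 0.557. The neighbourhoods of all 3 genes were also lower, with median log2 fold changes of -0.29 around Col6a1 and Col6a2 and -0.25 around Col6a3. With these subtracted the differences were -0.75, -0.74 and -0.13 (adjusted p = 0.0156 for the last).

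Among the other collagens a strong rise and a strong fall stood side by side. Col7a1, which forms the anchoring fibrils that tie the epidermal basement membrane to the dermis, had 443.7, 422.4 and 446.8 normalized counts in WT and 1786 and 1823 in the libraries labelled KO. It was 4.12-fold higher (log2 fold change 2.04, SE 0.068, adjusted p = 1.25e-16; chromosome 9, 108953586 to 108984875). Of its neighbours, Uqcrc1 had a log2 fold change of -0.064 (adjusted p = 0.144) and Ucn2 rose from a mean of 6.816 to 45.28 normalized counts. Col18a1, the source of endostatin and a proteoglycan of basement membranes, had 2731, 2766 and 2866 normalized counts in WT and 531.9 and 584.9 in the libraries labelled KO. This 4.99-fold fall was the largest of the family (log2 fold change -2.32, SE 0.056, adjusted p = 6.06e-19; chromosome 10, 77052178 to 77166530). Col18a1 lies 326.1 kb from Col6a1, and with the local median of -0.30 subtracted its difference was -2.03. Before that subtraction its direction was opposite to that of the 5 type IV chains that rose, and Col4a6 did not pass. With the local median subtracted, the type IV chain Col4a2 was lower too.

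The type VIII chains, which form the hexagonal network under the corneal endothelium and in vessel walls, parted. Col8a1 had 9632, 9724 and 9745 normalized counts in WT and 11161 and 11047 in the libraries labelled KO (log2 fold change 0.19, SE 0.036, adjusted p = 6.39e-05). Col8a2 had 138.8, 176.1 and 196.1 against 92.51 and 63.39 (log2 fold change -1.13, SE 0.184, adjusted p = 1.53e-05). The Col8a1 call was lost with the local median subtracted (log2 fold change 0.06, adjusted p = 0.214). Per length Col8a1 exceeded Col8a2 by 58.8, 46.8 and 42.1 times in WT and by 102 and 148 times in the libraries labelled KO. Col10a1, Col15a1 and Col17a1 had at most 57 reads in a library and did not pass, at log2 fold changes of 0.88, 0.74 and -0.52. Without WT replicate 1 Col15a1 passed (log2 fold change 0.94, adjusted p = 0.0414). Without KO replicate 1, which leaves a single library with that label, Col17a1 passed (-1.05, adjusted p = 0.00749). It also passed with the local median of 0.64 subtracted (-1.09, adjusted p = 0.00466).

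The make-up of the collagen message differed between the labels. Over the summed RPKM of the 43 genes, type I made up 43.1%, 43.7% and 44.0% in WT and 58.1% and 59.6% in the libraries labelled KO. Type III made up 8.49%, 8.45% and 8.60% in WT and 1.80% and 1.65% in the libraries labelled KO. The 3 WT libraries lay within 1 percentage point of each other for each type, and the 2 libraries labelled KO differed by more than that for type I. The gaps of types I and III between the labels were wider than the spread within either label. Type VI fell from 19.5%, 19.3% and 19.0% to 10.2% and 10.1%, and type XII from 3.70%, 3.67% and 3.67% to 1.27% and 1.31%. Type IV went from 6.48%, 6.36% and 6.31% to 9.48% and 9.25%. Type V was the steadiest of the main types, at 13.6%, 13.5% and 13.3% against 14.8% and 14.0%. Shares within a fixed sum are not independent, since a gain of type I lowers all others.

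**Figure D3:**
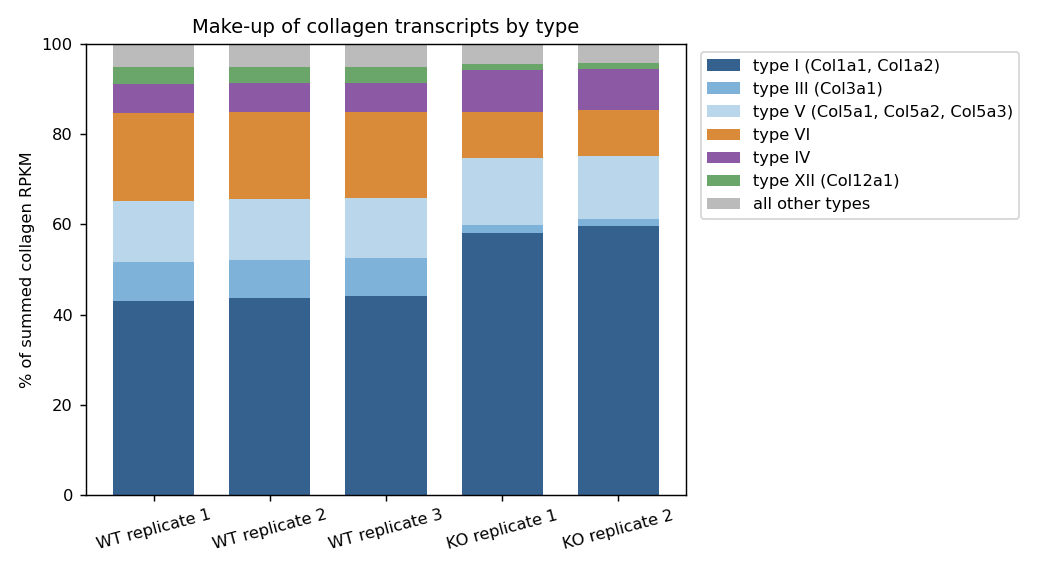
Share of each collagen type in the summed RPKM of the 43 collagen genes, as stacked bars from 0 to 100%, with 1 bar per library. The type I share is between 43.1% and 44.0% in the 3 WT bars and between 58.1% and 59.6% in the 2 KO bars, while types III, VI and XII are thinner in the latter.

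Chromosomal surroundings moved with some of these results and not with others. The tested genes within 5 Mb of a collagen gene had median log2 fold changes between -0.30 (Col18a1) and 0.64 (Col17a1). With the local median subtracted 9 collagen genes rose (30.0% of those tested, against 29.4% of all tested genes) and 13 fell (43.3% against 29.5%), instead of 12 and 11. Col3a1, Col4a3, Col4a4 and Col18a1 kept differences of -2.21, 6.10, 5.91 and -2.03. What underlies the local medians was not tested.

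**Figure D4:**
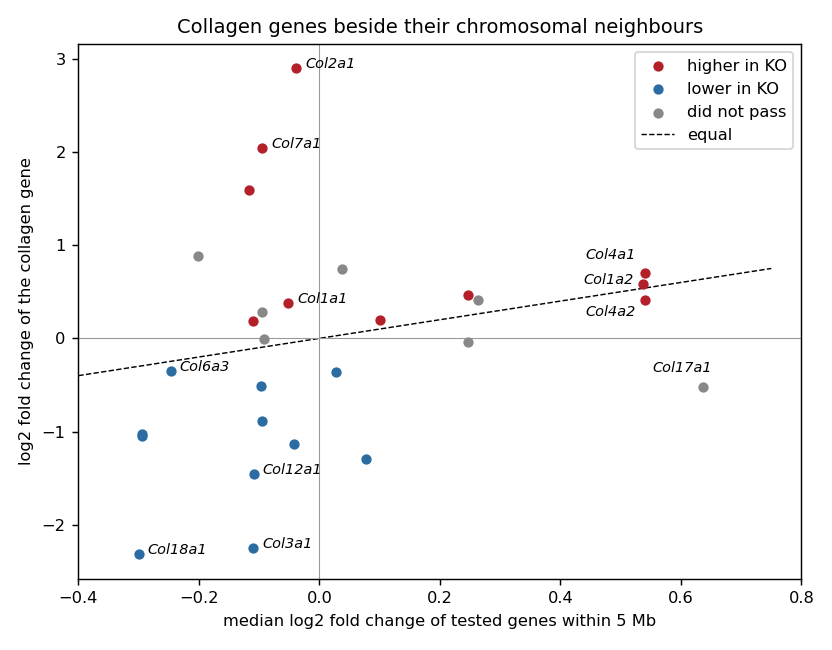
Log2 fold change of each tested collagen gene (vertical axis) against the median log2 fold change of the tested genes within 5 Mb of it (horizontal axis), with 1 point per gene and a dashed line where they are equal. Col4a3 and Col4a4, at 6.10 and 5.92, lie above the plotted range and are left out, as are the 13 untested genes, while Col1a2, Col4a1 and Col4a2 lie near the line at the right.

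Sites for the microRNA-29 family, small RNAs known to repress many collagen messages, were counted in the 3′ ends as a further feature of the genes. The levels of these microRNAs were not measured, since the libraries were made from poly-T selected RNA. The choice of this family was made after the values were seen, and the counts are a description. The mature sequences of the 3 members (RefSeq), 5′ to 3′ with the seed (bases 2 to 8) in capitals, are the same in that seed.
mmu-miR-29a-3p: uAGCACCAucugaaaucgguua
mmu-miR-29b-3p: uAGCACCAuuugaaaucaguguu
mmu-miR-29c-3p: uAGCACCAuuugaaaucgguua
The complement of the seed in DNA letters is TGGTGCT. It occurred in the longest annotated 3′ end (GENCODE M21) of 20 of the 30 tested collagen genes (66.7%), against 16.3% of 11261 tested genes. The median 3′ end of the 30 was 1032 bases, against 1219 over all. It occurred in 11 of the 12 collagen genes that rose (all but Col1a2), in 6 of the 11 that fell and in 3 of the 7 that did not pass. The median log2 fold change of all tested genes with a site was -0.03, and that of genes without was 0.0030. Col4a3 and Col5a1 held 4 sites each, and Col5a3 and Col4a5 held 3.

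The first site of a few of these genes, with the 15 bases before it, shows the sites in context. Genes that rose (Col1a1, Col4a1, Col4a4 and Col7a1) stand beside genes that fell (Col3a1, Col11a1 and Col6a3), and the capitals mark the match to the seed. The sequences are from GENCODE M21, in DNA letters, 5′ to 3′ along the transcript.
Col1a1: gtgggaaggaatttcTGGTGCT
Col4a1: gccaccgtcacaacaTGGTGCT
Col4a4: ttccagcaaattcagTGGTGCT
Col7a1: ctgctgtgctccattTGGTGCT
Col3a1: ttcaaaatgtctcaaTGGTGCT
Col11a1: ctatttggatttcgtTGGTGCT
Col6a3: cgtgacctgtcaataTGGTGCT
The same 7 letters thus stand in messages that differed in either direction, and whether the sites bear on the differences was not tested.

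Transcripts for proteins that make, assemble and remove collagen also differed, more often downwards. Of 76 listed genes, 67 were tested, and 16 of these (23.9%) rose and 32 (47.8%) fell with the KO label, against 32.6% of all tested genes in each direction. Their median log2 fold change was -0.17. In the list for hydroxylation, glycosylation and folding in the endoplasmic reticulum, 4 of 19 rose and 8 fell. That total was near the 65.3% called over all tested genes. Leprel1, a prolyl hydroxylase, and Leprel4, of the same gene family, differed by -1.30 and -0.82, while Plod2, the hydroxylase of telopeptide lysines, and Glt25d1, the galactosyltransferase of hydroxylysine, differed by 0.77 and 0.59 on the log2 scale. Serpinh1, the collagen chaperone known as HSP47, did not pass (log2 fold change 0.05, SE 0.038, adjusted p = 0.252). In the secretion list 5 of 8 rose and 2 fell, against 32.6% of all tested genes in each direction. Creb3l1, a membrane-bound factor that induces type I collagen in bone, went from a mean of 967.8 to 2323 normalized counts (log2 fold change 1.26), and the coat protein gene Sec24d differed by -0.19.

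Removal of propeptides releases chains for fibril assembly, and 1 of its 6 tested genes rose and 3 fell, against 32.6% of all tested genes in each direction. Adamts2, the protease for the amino-terminal propeptide of types I, II and III, fell from 1286, 1323 and 1287 normalized counts in WT to 382.1 and 405.9 (log2 fold change -1.72, SE 0.067, adjusted p = 1.85e-15), and its relative Adamts14 rose (0.63). Among 6 crosslinking genes Loxl1 and Loxl2 rose (0.13 and 0.38), Tgm2 and Loxl3 fell (-1.11 and -0.57), and Lox and Loxl4 did not pass. Of 13 tested regulators of fibrils 2 rose and 7 fell. The totals called among the crosslinking genes and the fibril regulators were both near the 65.3% called over all tested genes. Bgn, the small proteoglycan biglycan, rose from a mean of 28555 to 76265 normalized counts (log2 fold change 1.42). Thbs2, Ogn and Aspn, matrix proteins that bind or regulate fibrils, had log2 fold changes of -2.42, -2.42 and -1.97.

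Of 10 tested receptor and uptake genes 2 rose and 5 fell, a total near the 65.3% called over all tested genes. Itgb1, the shared beta subunit of collagen-binding integrins, rose by 1.28 on the log2 scale, and Itga2, an alpha subunit that pairs with it, fell from a mean of 121.8 to 10.53 normalized counts (log2 fold change -3.46). Ddr2, a receptor tyrosine kinase for fibrillar collagen, and Gpr126, an adhesion receptor that binds type IV collagen, differed by -0.44 and -0.87. All 5 tested genes for collagen-degrading proteases fell, where 32.6% of all tested genes fell. Ctsk, cathepsin K, had 575.4, 626.2 and 653.1 normalized counts in WT and 89.2 and 87.85 in the libraries labelled KO, and Mmp2, a gelatinase, differed by -1.07 on the log2 scale. Mmp8 was at 0 in all libraries.

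Markers of the cells themselves moved beside the collagens. Pdgfra, a fibroblast receptor gene, fell from a mean of 20013 to 1255 normalized counts. Of the 5 smooth muscle markers, the 3 tested (Acta2, Tagln and Cnn1) all rose, where 32.6% of all tested genes rose, Des and Myh11 stayed low, and the sum of the 5 went from between 19049 and 19647 to between 52414 and 54018 normalized counts. Other lists stayed far lower. The 5 epithelial markers summed to 30.1 to 33.3 in WT and 93.6 to 97.9 in the libraries labelled KO, the 5 endothelial markers to 26.7 to 37.0 and 77.8 to 80.4, and the 5 of skeletal muscle to 10.2 to 17.7 and 46.7 to 72.7. Much of each gap was 1 gene: Krt19 went from a mean of 18.57 to 68.62, Kdr from 1.606 to 38.17 and Acta1 from 10.81 to 56.38. Of tested markers 2 of 2 epithelial, 2 of 4 endothelial and 1 of 1 skeletal muscle rose, and none fell. The bone list summed to 103 to 126 and 148 to 197, that of macrophages and blood to 77.2 to 87.9 and 78.2 to 101, and that of neurons and glia to 33.6 to 47.5 and 41.8 to 63.4. In each of these lists 1 of 2 tested genes rose (Phex, Csf1r and Syp) and the other did not pass. The part of these markers in the collagen results was not tested.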

How the data were processed

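RNA of mouse embryonic fibroblasts (3 WT and 2 KO libraries by label) had been selected on poly-T beads, prepared with Nextera XT and sequenced on the NextSeq platform, per the labels' protocols. STAR, DESeq2 and genome build mm10 stand in the submitters' processing notes, with no versions or roles. Which program counted reads, against which annotation and with which strand setting, was not given in the sources used here, and neither were read filters.

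The authors deposited 1 table of 23337 genes. The authors' signal values per library are reads per gene over a size factor, which was read from the deposited values: all were whole multiples of 1 step per library within 0.1 reads. RPKM values of each library were deposited too, with, per the file headers, a log2 fold change, a Wald score and p-values of their own comparison. As deposited, 25 symbols read as dates and could not be named, and 5773 genes were at 0 throughout.

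Samples were grouped by title. The planned test was edgeR for raw counts or limma for normalized values, so log2(value + 1) of the 13062 genes with 10 or more in at least 2 libraries was fitted with limma 3.58.1 (trended prior, R 4.3.3), with the label as factor. Calls are two-sided at a Benjamini-Hochberg adjusted p under 0.05 over all genes tested. Fold changes on this scale understate those of low genes, and fold differences are ratios of mean normalized counts. The members and lists were chosen with earlier results of these data known, which also holds for the alternatives. Values in every library are given for the chains of types I, III, V and VI, for Col4a1 and Col4a2, for the 8 other members with the highest mean RPKM and for the 6 largest rises and falls. Of each pathway list up to 4 called genes with the smallest adjusted p are named, and genes named beyond these rules, such as neighbours, Serpinh1 and low members, were chosen after their values were seen. For the local median, each library's median deviation of the tested genes within 5 Mb, other collagens left out and at least 10 required, was subtracted. RefSeq positions (GRCm38.p6, the assembly mm10 names) were found for 23030 genes, 2274 by a synonym, and 10 list genes were matched by an older symbol. Col26a1 stands in the table as Emid2, at 0 in all libraries, and is not among the members. Promoter windows were found for 35 of 43 members.

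Alternatives were TMM and median-ratio scaling, other filters and pseudocounts, RPKM values plus 0.1, each library left out, a block for the replicate number, count tests with edgeR 4.0.16 and DESeq2 1.42.0 on whole reads of 4 libraries, and the authors' comparison. WT replicate 2 was left out of the count tests because its step of 0.989 is near 1, although its values too were whole multiples of that step. On simulated counts (12949 genes tested) the test recovered 40.8%, 78%, 93.8% and 100% of genes changed 1.2-fold, 1.5-fold, 2-fold and 4-fold. Of its 160 calls 8 were false. Only a small set of genes was changed there, and every gene had the same spread between replicates (dispersion 0.0013). In the real comparison 65.3% of all tested genes were called, so these shares need not hold for it.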

Additional observations from a re-analysis of the deposited data

How the results depend on the processing

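Of 23 called collagen genes, 19 kept their direction and their side of the threshold under each of the 17 alternatives in which they were tested, which is all 17 for 18 of them and all but the mean of 50 or more for Col2a1. The exceptions were Col27a1 (log2 fold change -0.36), which was lost under 6, among them no filter (adjusted p = 0.0669), RPKM values (0.0981) and the authors' deposited table (0.0717), and Col1a2, Col4a2 and Col8a1, which changed with the local median subtracted. Under that alternative Col1a2 reversed to -0.0343 and Col4a2 to -0.1481, Col4a1 went from 0.70 to 0.14 and Col6a3 from -0.35 to -0.13. The counts of collagen genes ranged from 9 to 13 higher and from 10 to 13 lower, with 12 and 11 by both edgeR and DESeq2 on 4 libraries. The difference in the collagen share of all counts changed sign, to -0.0189 percentage points without KO replicate 2 and to -0.00121 on RPKM values, and ranged from -0.0189 to 0.0567 with 1 library left out. Replicate numbers did not pair the libraries: deviations of same-numbered libraries correlated at -0.015 and 0.023. With the replicate block 12 collagen genes were higher and 11 lower, and 3958 and 3947 of all genes. With 2 libraries labelled KO, leaving out either leaves 1, whose spread is assumed to be that of the WT libraries. Depth limits the 13 untested genes and those with under 60 reads.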
